A study of Mus musculus with 24 samples.

Results

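Itgb6 encodes the beta 6 integrin subunit. It is described here across mouse hearts together with 8 genes of the system that activates TGF-beta: the integrin subunit genes Itgav, Itgb1, Itgb5 and Itgb8, the ligand genes Tgfb1, Tgfb2 and Tgfb3, and Ltbp1, which encodes a latent TGF-beta binding protein. All 9 genes were found by symbol, each with 1 identifier, among 24011 named genes. Itgb6 was chosen by its array values in these same data, where it was among the genes most reduced after stroke, so its differences between stroke and sham hearts are given as a description, with no test. The other 8 genes were picked for their function with Itgb6, when results of these data were already known.

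The samples were hearts of 8-week-old C57BL/6J mice, profiled on Affymetrix arrays. Mice underwent a sham operation or middle cerebral artery occlusion (MCAO), a model of ischemic stroke, and hearts were taken 24 h or 72 h later. The 4 groups, sham 24 h, MCAO 24 h, sham 72 h and MCAO 72 h, held 6 arrays each, 24 in all. The labels name no part of the heart and do not tie arrays to single animals. The p-values therefore cover only the spread among these arrays, which may be technical. Values are log2 expression as deposited. Probes differ in brightness, so a level of one gene does not measure its RNA against that of another. Levels of different genes are set together only in a reference for dim signals and in summed marker levels, which both carry this limit.

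TGF-beta is secreted in a latent form: its own propeptide wraps the growth factor, and a latent TGF-beta binding protein ties the complex to the extracellular matrix. Integrins that contain the αv subunit bind an RGD motif in the propeptides encoded by Tgfb1 and Tgfb3 and free or expose the growth factor, while the propeptide of Tgfb2 lacks that motif. The β6 subunit pairs only with αv and is known mainly from epithelia, where αvβ6 is a strong activator of latent TGF-beta. The β8 subunit also pairs only with αv, β5 likewise, and β1 pairs with αv and with many other α subunits.

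The 250 bases before each annotated start of Itgb6 and of Ltbp1 are shown because Itgb6 had the largest difference of the members, Ltbp1 passed the test at both times, and each has a pair of annotated starts, which a single array value per gene cannot separate. They come from RefSeq, build GRCm38.p6, and are written 5′ to 3′ on the gene's strand.
Itgb6, distal start, chr2:60722604-60722853, minus strand: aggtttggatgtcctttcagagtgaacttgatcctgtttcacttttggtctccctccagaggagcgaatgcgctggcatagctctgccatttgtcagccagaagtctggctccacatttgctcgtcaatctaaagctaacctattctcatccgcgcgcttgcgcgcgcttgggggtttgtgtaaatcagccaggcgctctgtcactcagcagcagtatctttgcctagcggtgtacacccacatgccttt
Itgb6, proximal start, chr2:60673694-60673943, minus strand: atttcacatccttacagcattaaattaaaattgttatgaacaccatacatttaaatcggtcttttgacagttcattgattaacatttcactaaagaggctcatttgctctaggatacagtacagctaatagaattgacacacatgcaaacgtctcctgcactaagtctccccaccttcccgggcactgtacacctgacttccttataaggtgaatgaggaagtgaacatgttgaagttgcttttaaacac
Ltbp1, first start, chr17:75005279-75005528, plus strand: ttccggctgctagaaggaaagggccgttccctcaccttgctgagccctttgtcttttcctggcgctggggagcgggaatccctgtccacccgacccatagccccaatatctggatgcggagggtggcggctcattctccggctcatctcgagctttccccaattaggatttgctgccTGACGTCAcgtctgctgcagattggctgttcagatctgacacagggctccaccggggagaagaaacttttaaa
Ltbp1, second start, chr17:75178531-75178780, plus strand: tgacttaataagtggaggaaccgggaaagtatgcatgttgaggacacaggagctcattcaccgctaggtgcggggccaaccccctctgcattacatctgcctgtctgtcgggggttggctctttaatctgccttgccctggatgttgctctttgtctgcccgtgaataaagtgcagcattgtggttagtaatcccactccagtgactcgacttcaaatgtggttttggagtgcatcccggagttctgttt
Capitals mark TGACGTCA, the cAMP response element, the motif of 6 searched that was present in these windows. It lay at positions -73 to -66 relative to the first start of Ltbp1, and 1.55% of 32851 such windows of all genes hold it on either strand. This motif was added to the search after that window had been read. The other 5 motifs were searched on both strands and were not found in these 4 windows. The half-site of the glucocorticoid receptor was searched as AGAACA, which 16.1% of all windows hold. The AP-1 site was searched as TGANTCA, which 6.75% hold. The core promoter element named for its letters was searched as TATAAA, which 12.4% hold. The binding site of Sp1 was searched as GGGCGG, which 32.7% hold, and the E-box as CACGTG, which 6.02% hold. The distal Itgb6 window held 52.0% G or C and the proximal one 38.0%, against a median of 52.4% over all windows. RefSeq windows were found for 8 of the 9 members.

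Itgb6 was lower after MCAO at both times, and at neither time did the groups overlap. At 24 h its log2 value ran from 7.09 to 8.06 in the sham group (median 7.33) and from 4.76 to 5.62 in the MCAO group (median 5.35). At 72 h it ran from 6.63 to 7.58 in the sham group (median 7.11) and from 4.79 to 5.83 in the MCAO group (median 5.09). The lowest of the 12 sham arrays therefore lay above the highest of the 12 MCAO arrays. The group means were 7.42 ± 0.38 and 5.21 ± 0.35 at 24 h and 7.11 ± 0.32 and 5.16 ± 0.35 at 72 h (SD, n = 6 each). The difference was -2.21 at 24 h (SE 0.19), 4.61-fold lower, and -1.95 at 72 h (SE 0.19), 3.87-fold lower. Among all 24011 genes this was rank 3 from the lowest log2 difference at 24 h and rank 1 at 72 h.

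**Figure D1:**
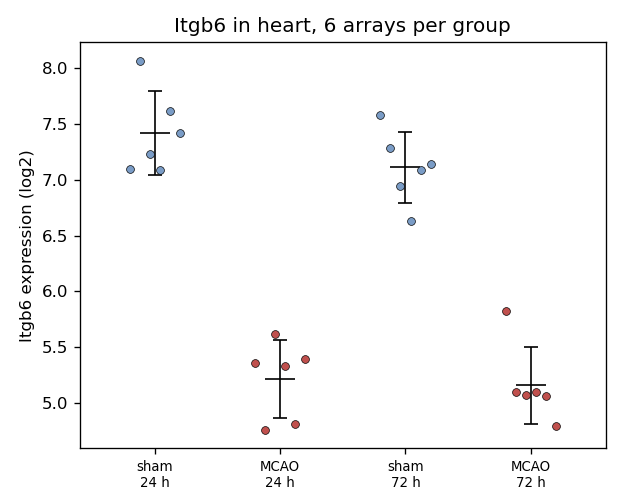
Log2 expression of Itgb6 (vertical axis) on each of the 24 arrays, by group (horizontal axis: operation and hours after it). Points are arrays, the short line is the group mean and the bars are ± 1 SD; the MCAO arrays lie between 4.76 and 5.83 and the sham arrays between 6.63 and 8.06.

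The differences of Itgb6 between times are likewise given as a description. Between sham groups, 72 h minus 24 h was -0.31 (SE 0.19, 95% interval -0.70 to 0.082). Between MCAO groups it was -0.055 (SE 0.19, interval -0.44 to 0.33). The effect of MCAO at 72 h minus that at 24 h was 0.25 (SE 0.27). This value is made from the differences by which Itgb6 was chosen and is not tested. Over all genes 0.0208% passed for sham hearts at 72 h against 24 h, 10.4% for MCAO hearts at 72 h against 24 h, and 1.79% for the difference of the effects.

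The SD of Itgb6 was similar in the 4 groups. The median SD over all genes was 0.218 in MCAO 24 h, against 0.130 in sham 24 h, 0.114 in sham 72 h and 0.105 in MCAO 72 h. Replicates 5 and 6 of MCAO 24 h correlated least with the rest of their group (r across genes of 0.976 and 0.971, with 0.985 to 0.997 for all others). Itgb6 on those arrays was 4.81 and 5.40, inside the range of the other 4, and the 24 h difference without both was -2.15 (SE 0.21). At 24 h 11.6% of 1365 olfactory and vomeronasal receptor genes, which serve smell and are not expected in heart, also passed the test, against 1 gene at 72 h. The first principal component of these receptor genes ran from -8.04 to -0.42 in MCAO 24 h and from 0.61 to 3.41 over the other 18 arrays, so it separates the MCAO 24 h group from the rest. As a covariate it is therefore partly confounded with the 24 h contrast. A 24 h difference can become smaller, larger or opposite in sign with it, and the error widens. A call lost with it does not show that the difference is absent. With it, the Itgb6 difference was -2.06 (SE 0.35) at 24 h and -1.95 (SE 0.19) at 72 h.

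The receptor genes also gave a reference for dim signals, since no background measurement of the arrays was analysed here. The mean of Itgb6 lay above 100% of the receptor genes in both sham groups, above 99.6% in MCAO 24 h and above 99.2% in MCAO 72 h.

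Itgb6 is known mainly from epithelia, and the 12 epithelial markers listed for comparison were examined beside it. Which heart cells gave its signal was not tested. At 24 h 3 of the 12 passed, all lower, where 21.8% of all genes passed, 11.1% higher and 10.8% lower. These were the cadherin gene Cdh1 (log2 difference -0.39, SE 0.071, limma adjusted p = 0.00046), the keratin gene Krt7 (-0.69, SE 0.12, limma adjusted p = 0.000506) and the splicing regulator gene Esrp1 (-0.17, SE 0.056, limma adjusted p = 0.0284). At 72 h 0 of the 12 passed in limma, with 0 at an unadjusted p under 0.05, where 2.35% of all genes passed. The summed level of the 12 markers, as log2, ran from 7.52 to 7.77 in sham 24 h, 7.45 to 7.54 in MCAO 24 h, 7.48 to 7.71 in sham 72 h and 7.48 to 7.62 in MCAO 72 h. The group means of 7 of the 12 in sham 24 h and 9 of the 12 in each other group lay at or below 3.96, the 95th percentile of the receptor genes. Esrp1 was below this percentile in both 24 h groups, with means of 3.46 in sham and 3.29 in MCAO, so its difference is of a dim signal. Cdh1 and Krt7 were above it in sham 24 h, at 4.30 and 4.54. In MCAO 24 h they were below it, at 3.90 and 3.86, so their differences end among dim signals. The part of these markers in the values of Itgb6 was not tested at either time. In tissue RNA, fewer cells of a type and less RNA per cell cannot be told apart.

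Itgav, the only partner of the β6 subunit, had no difference past the threshold. Its log2 value ran from 7.42 to 7.80 in sham 24 h, 7.32 to 7.79 in MCAO 24 h, 7.42 to 7.92 in sham 72 h and 7.22 to 7.83 in MCAO 72 h. All 4 groups overlapped. The difference was 0.015 at 24 h (95% interval -0.19 to 0.22, limma adjusted p = 0.938) and -0.066 at 72 h (interval -0.27 to 0.14, limma adjusted p = 0.997). Both intervals leave out a change of the size seen for Itgb6.

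Among the other β subunits, Itgb1, the common partner of matrix-binding integrins, ran from 10.1 to 10.8 over all arrays. Its difference was 0.048 at 24 h (interval -0.14 to 0.23, limma adjusted p = 0.746) and 0.099 at 72 h (interval -0.088 to 0.29, limma adjusted p = 0.904).

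Itgb5 had higher means after MCAO at both times, short of the threshold. At 24 h it ran from 8.83 to 9.08 in sham (median 8.89) and from 8.72 to 9.53 in MCAO (median 9.13). At 72 h it ran from 8.63 to 9.13 in sham (median 8.93) and from 8.94 to 9.45 in MCAO (median 9.32). At 24 h 4 of 6 MCAO arrays lay above every sham array and 1 below every sham array, and at 72 h 5 of 6 lay above. The difference was 0.25 at 24 h (SE 0.12, limma adjusted p = 0.138) and 0.35 at 72 h (SE 0.12, limma adjusted p = 0.152). Without MCAO 24 h replicate 6 the 24 h difference was 0.34 and passed (limma adjusted p = 0.0299). At 72 h it passed with array weights (0.37, limma adjusted p = 0.0080) and without MCAO 24 h replicates 5 and 6 (limma adjusted p = 0.048).

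Itgb8, whose product activates TGF-beta without the cell traction that αvβ6 uses, gave a dim signal, with group means above 96.0% to 98.0% of the receptor genes. It ran from 3.90 to 4.23 in sham 24 h (median 4.10), 4.04 to 4.47 in MCAO 24 h (median 4.33), 3.90 to 4.11 in sham 72 h (median 4.11) and 4.09 to 4.39 in MCAO 72 h (median 4.15). At each time 4 of 6 MCAO arrays lay above all sham arrays. It rose by 0.21 at 24 h (SE 0.074, limma adjusted p = 0.0464), and its difference at 72 h was 0.14 (SE 0.074, limma adjusted p = 0.543). The 24 h call was lost when any of 17 of the 24 arrays was left out, the exceptions being replicates 1, 3 and 6 of MCAO 24 h, 6 of MCAO 72 h, 1 and 2 of sham 24 h and 3 of sham 72 h. With the receptor covariate the 24 h difference was -0.038 (limma adjusted p = 0.911).

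The 3 ligand genes had no difference past the threshold at either time. The 24 h differences of Tgfb1 and Tgfb2 changed sign with the receptor covariate, to 0.40 (limma adjusted p = 0.506) and -0.32 (limma adjusted p = 0.684). Tgfb1, the most studied ligand in cardiac fibrosis, ran from 7.22 to 8.00 in sham 24 h (median 7.79), 6.57 to 7.78 in MCAO 24 h (median 7.56), 7.44 to 8.45 in sham 72 h (median 7.71) and 7.32 to 7.84 in MCAO 72 h (median 7.54). The groups overlapped, and the array at 6.57, MCAO 24 h replicate 5, stood below the rest of its group. Its difference was -0.29 at 24 h (SE 0.18, interval -0.67 to 0.093, limma adjusted p = 0.279) and -0.25 at 72 h (SE 0.18, interval -0.63 to 0.13, limma adjusted p = 0.802).

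Tgfb2, the ligand whose propeptide lacks the integrin motif, varied widely within groups, from 3.97 to 5.79 over all arrays. Its difference was 0.34 at 24 h (SE 0.21, interval -0.082 to 0.77, limma adjusted p = 0.245) and 0.0037 at 72 h (SE 0.21, interval -0.42 to 0.43, limma adjusted p = 1.00). Tgfb3 ran from 5.51 to 5.94 in sham 24 h (median 5.77), 4.82 to 5.91 in MCAO 24 h (median 5.45), 5.55 to 6.12 in sham 72 h (median 5.63) and 5.45 to 5.79 in MCAO 72 h (median 5.51). At 24 h 3 of 6 MCAO arrays lay below all sham arrays, and at 72 h 4 of 6. Its difference was -0.34 at 24 h (SE 0.14, limma adjusted p = 0.0813) and -0.19 at 72 h (SE 0.14, limma adjusted p = 0.802). The 24 h difference passed without MCAO 24 h replicate 6 (-0.44, limma adjusted p = 0.0178) and without replicates 5 and 6 (-0.53, limma adjusted p = 0.0062).

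Ltbp1, which stores the latent complex in the matrix, fell at both times. It ran from 6.02 to 6.32 in sham 24 h (median 6.11), 5.62 to 6.18 in MCAO 24 h (median 5.84), 6.11 to 6.35 in sham 72 h (median 6.28) and 5.59 to 6.17 in MCAO 72 h (median 5.91). At each time 5 of 6 MCAO arrays lay below all sham arrays. It fell by 0.27 at 24 h (SE 0.092, 1.21-fold lower, limma adjusted p = 0.035) and by 0.38 at 72 h (SE 0.092, 1.30-fold lower, limma adjusted p = 0.0237). The 24 h call was lost in 6 of 24 fits without 1 array (replicates 3, 5 and 6 of MCAO 24 h and 1, 2 and 6 of sham 24 h, limma adjusted p from 0.0542 to 0.0827), without replicates 5 and 6 of MCAO 24 h (0.140), with the trended and robust prior (0.0599), array weights (0.162) or only the groups compared (0.0977), and with the receptor covariate (-0.078, limma adjusted p = 0.852). The 72 h call was lost in 5 (replicates 2, 3 and 5 of MCAO 72 h and 5 and 6 of sham 72 h, limma adjusted p from 0.0522 to 0.0765) and with the trended and robust prior (0.0534), and it was kept with the receptor covariate (-0.37, limma adjusted p = 0.0215).

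**Figure D2:**
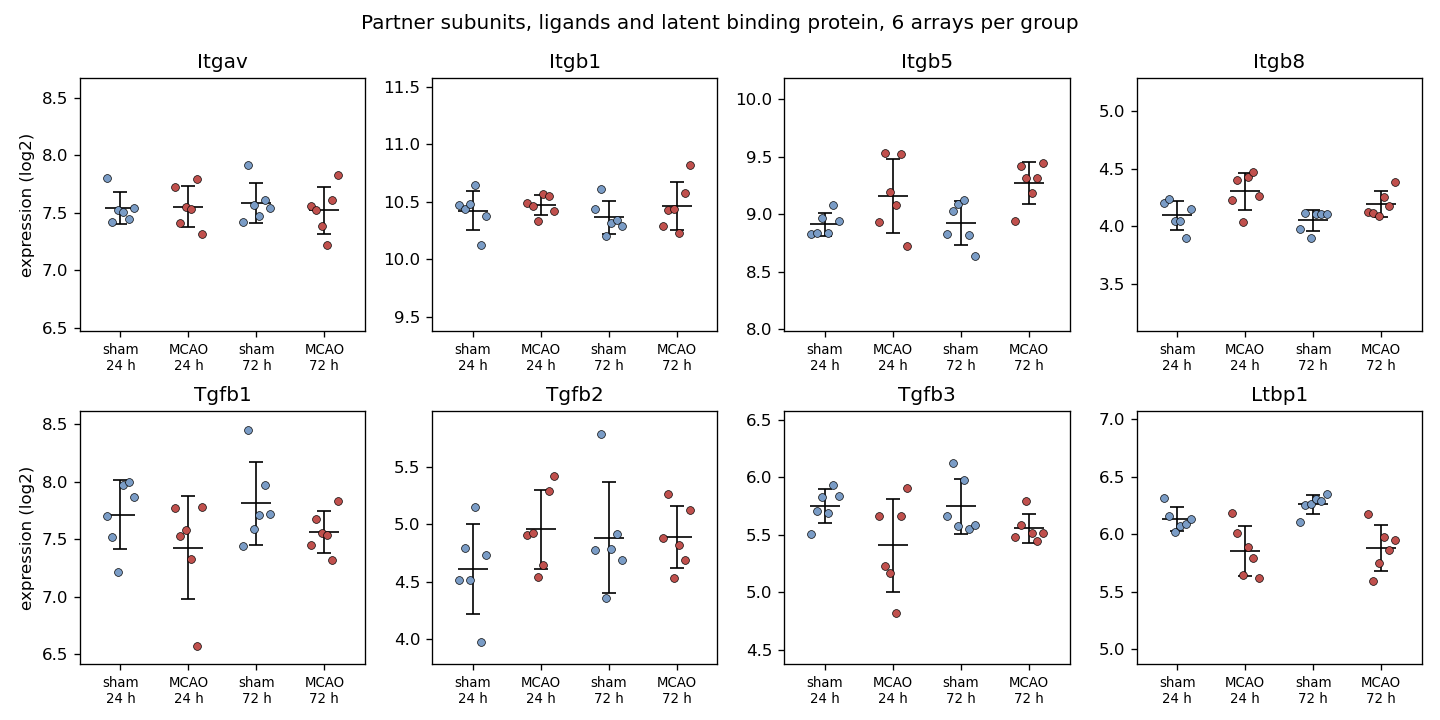
Log2 expression of the 8 other members (vertical axes, each spanning the same number of log2 units) on each array, by group (horizontal axes). Points are arrays, the short line is the group mean and the bars are ± 1 SD; Ltbp1 lies lower in both MCAO groups, with 5 of 6 arrays below all sham arrays at each time, and Itgav overlaps throughout.

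Of the 8 other members 2 passed at 24 h, Itgb8 upward and Ltbp1 downward, a share of 25.0% against 21.8% of all genes. At 72 h 1 of 8 passed, Ltbp1, which is 12.5% against 2.35% of all genes. Their median log2 difference was 0.031 at 24 h and -0.031 at 72 h, with 0.0082 and 0.0015 over all genes. None of the 8 passed for the difference of the MCAO effect between times, or for sham or MCAO hearts at 72 h against 24 h. In each comparison 0 of the 8 had an unadjusted p under 0.05 in limma. For Ltbp1 the effect at 72 h minus that at 24 h was -0.10 (SE 0.13, limma adjusted p = 0.725).

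**Figure D3:**
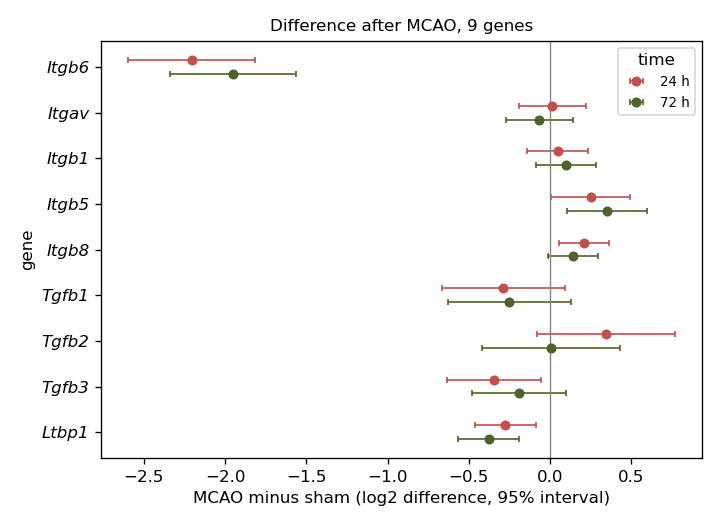
MCAO minus sham log2 difference (horizontal axis) of the 9 members (vertical axis) at 24 h and 72 h; points are the fitted differences and bars their 95% intervals. Itgb6, at -2.21 and -1.95, stands away from the other members, all of which lie between -0.38 and 0.35.

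Which genes behaved most like Itgb6 was described by Pearson correlation over the 24 arrays. These fall into a sham and an MCAO cluster for Itgb6, so such an r mostly tells the clusters apart. The 5 highest were Aplnr, the apelin receptor (r = 0.929), Fam78a (0.911), Lrrc14b (0.905), Grb14, an adaptor that inhibits insulin receptor signalling (0.905), and Lmod3, a leiomodin of thin filaments (0.904). The 5 lowest were the proteoglycan gene Spock2 (-0.943), Tmtc1 (-0.939), Rasal2, a Ras GTPase activator (-0.929), the adhesion receptor gene Adgrf5 (-0.928) and the triglyceride lipase gene Pnpla2 (-0.923). Taken over deviations from the group means, the same r was 0.233 for Aplnr, 0.314 for Lmod3, 0.615 for Fam78a, -0.655 for Tmtc1 and -0.538 for Spock2. The 5 highest by deviations were Olfr1504 (0.699), Slc7a11 (0.692), Awat1 (0.687), E2f5 (0.684) and Oas1a (0.666), whose MCAO minus sham differences ran from -0.16 to 0.20 over both times. All of these except E2f5 had means below 3.96 in every group, among the levels of the receptor genes, and Olfr1504 is itself an olfactory receptor gene. Among the members, deviations of Itgb5 ran against those of Itgb6 (r = -0.571, from -0.608 to -0.496 without any 1 array). The r was also negative for the other integrin subunits, at -0.361 for Itgb8, -0.306 for Itgb1 and -0.207 for Itgav. It was 0.107 for Tgfb1, -0.080 for Tgfb2, -0.038 for Tgfb3 and -0.032 for Ltbp1.

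The genes beside Itgb6 on chromosome 2 were compared with it. Of the 3 nearest measured protein-coding genes on each side, Pla2r1 passed at 24 h (-0.22, limma adjusted p = 0.0491) and 0 passed at 72 h, where their differences ran from -0.16 to 0.13. The shares of all genes that passed were 21.8% at 24 h and 2.35% at 72 h.

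A set of 8 further lists, with 96 measured genes outside the 9 members, covered the rest of the integrin and TGF-beta system. At 24 h 11 of the 96 rose and 13 fell, together 25.0% against 21.8% of all genes, of which 11.1% rose and 10.8% fell. At 72 h 3 rose and 4 fell, together 7.29% against 2.35% of all genes, of which 1.17% rose and 1.19% fell. With the receptor covariate 2 of the 96 passed at 24 h, the integrin gene Itga9 and the protease gene Adamts1, which is 2.08% against 1.34% of all genes, and 8 passed at 72 h, 8.33% against 2.80%. Of the 24 differences called at 24 h, 10 were at least as large with it, 12 were smaller and 2 had the opposite sign, and their median SE went from 0.12 to 0.206.

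Among 22 other integrin subunits, the laminin receptor subunit gene Itga6 fell at both times. It ran from 7.40 to 7.76 in sham 24 h and 6.52 to 7.05 in MCAO 24 h, groups that did not overlap, and from 6.79 to 7.69 in sham 72 h and 6.20 to 6.80 in MCAO 72 h, which touched. It fell by 0.77 (SE 0.13, limma adjusted p = 0.000209) and 0.79 (SE 0.13, limma adjusted p = 0.000677). Itga9, which pairs with β1 and binds tenascin, fell by 0.55 (SE 0.11, limma adjusted p = 0.000893) and 0.52 (SE 0.11, limma adjusted p = 0.00633). Itga1, a collagen receptor subunit, fell by 0.32 (SE 0.095, limma adjusted p = 0.018) and 0.46 (SE 0.095, limma adjusted p = 0.00633). Itga3 rose at 24 h (0.66, SE 0.11, limma adjusted p = 0.000216), as did Itga5, the fibronectin receptor subunit (0.53, SE 0.15, limma adjusted p = 0.0131). With the receptor covariate the 24 h difference was 0.26 for Itga3 (limma adjusted p = 0.465), 0.83 for Itga5 (limma adjusted p = 0.108) and -0.84 for Itga9 (limma adjusted p = 0.0233). The list thus had 2 higher and 3 lower at 24 h and 0 higher and 3 lower at 72 h, with medians of -0.061 and 0.011. The shares of all genes were 11.1% higher and 10.8% lower at 24 h, and 1.17% higher and 1.19% lower at 72 h.

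No further gene listed for the latent complex and matrix storage passed. Of 10 measured genes for the latent complex and its matrix scaffold, among them Ltbp3 and Ltbp4, 0 passed in limma at either time. Over all genes 21.8% passed at 24 h and 2.35% at 72 h. At each time 2 of the 10 had an unadjusted p under 0.05 in limma. The list median was -0.080 at 24 h and -0.092 at 72 h.

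Among 11 other activators and processing proteases, Adamts1, a secreted metalloprotease that can activate latent TGF-beta, rose by 1.01 at 24 h (SE 0.14, limma adjusted p = 3.68e-05) and 0.53 at 72 h (SE 0.14, limma adjusted p = 0.0429). At 24 h it ran from 6.62 to 7.02 in sham and from 7.40 to 8.27 in MCAO, with no overlap. The 72 h call was lost in 11 of 24 fits without 1 array (limma adjusted p up to 0.117): replicates 1, 2, 3, 5 and 6 of MCAO 72 h, 2 and 6 of sham 24 h and 1, 3, 5 and 6 of sham 72 h. Furin, which cuts the propeptide from the ligand, rose by 0.62 at 24 h (SE 0.10, limma adjusted p = 0.000174), and its difference at 72 h was 0.35 (SE 0.10, limma adjusted p = 0.0714). The 24 h difference of Furin was 0.29 with the receptor covariate (limma adjusted p = 0.386). The list had 2 higher and 0 lower at 24 h and 1 higher and 0 lower at 72 h, with medians of 0.13 and 0.075. Among all genes 11.1% were higher at 24 h and 1.17% at 72 h.

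The TGF-beta receptors moved upward where they passed, as did 11.1% of all genes at 24 h and 1.17% at 72 h. Of 6 measured, 3 rose at 24 h and 0 fell, with a median of 0.34: the coreceptor gene Tgfbr3 by 0.66 (SE 0.10, limma adjusted p = 0.000155), the type II receptor gene Tgfbr2 by 0.43 (SE 0.10, limma adjusted p = 0.00399) and the type I receptor gene Tgfbr1 by 0.67 (SE 0.19, limma adjusted p = 0.0171). Tgfbr3 ran from 7.09 to 7.67 in sham 24 h and from 7.73 to 8.14 in MCAO 24 h, and from 7.32 to 7.80 in sham 72 h and 7.86 to 8.24 in MCAO 72 h, with no overlap at either time. It rose by 0.49 at 72 h (SE 0.10, limma adjusted p = 0.00928), where 1 of 6 passed and the list median was 0.17. None of the 3 passed at 24 h with the receptor covariate (Tgfbr3 0.36, limma adjusted p = 0.313; Tgfbr2 0.28, limma adjusted p = 0.462; Tgfbr1 0.13, limma adjusted p = 0.886).

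Signal mediators moved both ways at 24 h. Of 15 genes 3 rose and 4 fell, with a median of -0.029, where 11.1% of all genes rose and 10.8% fell. Smad7, the inhibitory SMAD that TGF-beta itself induces, rose by 0.69 (SE 0.099, limma adjusted p = 4.97e-05), from a range of 4.55 to 5.11 in sham to 5.28 to 6.03 in MCAO. Zfyve9, an anchor for receptor-regulated SMADs, rose by 0.49 (SE 0.097, limma adjusted p = 0.00102). The decoy receptor gene Bambi fell by 0.84 (SE 0.17, limma adjusted p = 0.00174), and Smad6, the inhibitory SMAD of BMP signalling, fell by 0.48 (SE 0.11, limma adjusted p = 0.00435). With the receptor covariate Bambi was at 0.015 (limma adjusted p = 0.984), Smad6 at -0.11 (limma adjusted p = 0.807), Zfyve9 was at 0.13 (limma adjusted p = 0.712), and Smad7 was at 0.68 (limma adjusted p = 0.0667). At 72 h 0 of the 15 passed in limma, where 2.35% of all genes passed. Of the 15, 2 had an unadjusted p under 0.05 at 72 h, and the list median was 0.043.

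Of 19 measured target genes of TGF-beta, 7 fell and 1 rose at 24 h, with a list median of -0.36. Of all genes, 10.8% fell and 11.1% rose at that time. At 72 h 1 fell and 1 rose, with a median of -0.20, where 1.19% of all genes fell and 1.17% rose. Col3a1, the type III collagen chain, fell at both times, by 1.63 (SE 0.31, limma adjusted p = 0.000729) and 1.45 (SE 0.31, limma adjusted p = 0.00863), and its 24 h difference was -2.14 with the receptor covariate (SE 0.55, limma adjusted p = 0.0551). Acta2, smooth muscle actin, fell by 0.84 at 24 h (SE 0.18, limma adjusted p = 0.00234), and its difference at 72 h was -0.67 (SE 0.18, limma adjusted p = 0.0529). Ccn2, connective tissue growth factor, differed by 0.30 at 24 h (SE 0.24, limma adjusted p = 0.404) and rose by 1.05 at 72 h (SE 0.24, limma adjusted p = 0.0161), a call lost without MCAO 72 h replicate 6 (limma adjusted p = 0.0522) or sham 72 h replicate 3 (limma adjusted p = 0.0517). The target that rose at 24 h was Smad7, which is also counted among the mediators. Among the targets that fell at 24 h, Pmepa1 is also counted among the mediators and Acta2 among the mural markers. Col3a1 and Ccn2 were known from earlier results of these data, so their direction here is not independent evidence.

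Among 14 adhesion partners that link integrins to the cytoskeleton, 1 passed at 24 h, where 21.8% of all genes passed. This was Fermt2, which encodes kindlin-2 and rose by 0.30 (SE 0.069, limma adjusted p = 0.00429). With the receptor-gene covariate it was at -0.014 (limma adjusted p = 0.963). At 72 h 0 of the 14 passed in limma, with 0 at an unadjusted p under 0.05, where 2.35% of all genes passed. Of 5 measured genes for other RGD ligands 0 passed in limma at either time, beside these same shares of all genes. At each time 0 of the 5 had an unadjusted p under 0.05, and the list medians were -0.072 and -0.35.

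**Figure D4:**
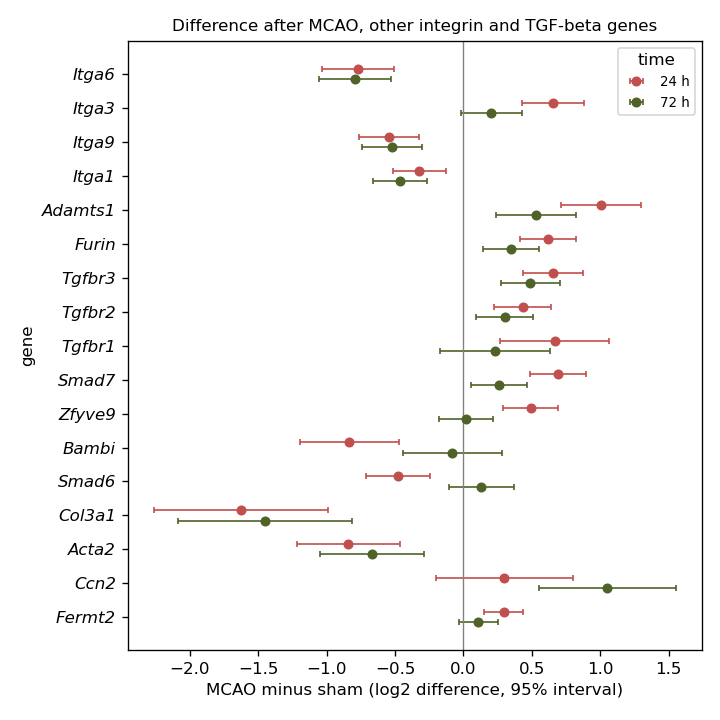
MCAO minus sham log2 difference (horizontal axis) of the 17 other integrin and TGF-beta genes named from the lists (vertical axis) at 24 h and 72 h; points are fitted differences and bars their 95% intervals. Itga6, Itga9, Itga1 and Col3a1 passed below 0 at both times, and Adamts1 and Tgfbr3 passed above 0 at both.

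Markers of other cell types moved in part with these groups. The counts that follow stand beside the 21.8% of all genes that passed at 24 h and the 2.35% at 72 h. At 24 h the fibroblast genes Lum (-1.31, SE 0.21, limma adjusted p = 0.000185) and Dpt (-0.42, SE 0.15, limma adjusted p = 0.0497) fell among 8, and at 72 h Gsn rose (0.39, SE 0.089, limma adjusted p = 0.0145) and Pi16 fell (-0.999, SE 0.25, limma adjusted p = 0.0328). Summed fibroblast markers, as log2, ran from 12.79 to 13.12 in sham 24 h, 12.63 to 13.00 in MCAO 24 h, 12.94 to 13.20 in sham 72 h and 13.01 to 13.35 in MCAO 72 h. Of 6 endothelial markers Pecam1 and Tie1 rose and Kdr fell at 24 h (-0.88, SE 0.12, limma adjusted p = 2.59e-05), and Pecam1 rose and Kdr fell at 72 h. The endothelial sum ran from 11.80 to 11.98, 11.63 to 11.85, 11.64 to 11.88 and 11.55 to 11.74 in the same order of groups. Of 6 mural markers Abcc9 and Acta2 fell at 24 h, and of 8 cardiomyocyte markers Myh6 and Ryr2 fell at 24 h and Ckm at 72 h. The mural sum ran from 12.80 to 13.10, 12.58 to 12.89, 12.85 to 13.06 and 12.65 to 13.01, and the cardiomyocyte sum from 15.78 to 15.87, 15.59 to 15.81, 15.78 to 15.90 and 15.63 to 15.79. The group means of the 8 cardiomyocyte markers were at least 10.7, and those of the fibroblast, endothelial, mural and macrophage markers were all above the 95th percentile of the receptor genes. The means of 3 of 7 mesothelial or epicardial markers and of all 4 T cell markers lay at or below that percentile in every group. Of the 7 markers Wt1 rose and Upk3b fell at 24 h, and of 8 macrophage markers Cd163 rose at 24 h. The mesothelial sum ran from 6.89 to 7.31, 6.87 to 7.12, 6.89 to 7.87 and 6.90 to 7.04, and the macrophage sum from 10.46 to 10.98, 10.23 to 11.18, 10.57 to 11.41 and 10.30 to 11.05. For 4 platelet and 4 T cell markers 0 passed in limma at either time, with 2 and 0 at an unadjusted p under 0.05 at 24 h and 1 and 0 at 72 h. The part of these markers in the values of the members was not tested.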

How the data were processed

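Gene expression was measured in hearts on 24 Affymetrix arrays, 6 in each of 4 groups. The table holds log2 expression values as deposited by the authors, from 2.78 to 13.5 with a median of 4.16. The sorted values of the arrays differed by at most 0.00191, as after quantile normalization. HOMER is listed, with no role, in the submitters' processing notes, and the background correction, summarization and genome build were not given in the sources used here. With no read counts, the number of arrays limits the precision.

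Of 24973 identifiers 24015 had 1 gene symbol in GEO's platform annotation, 0 had several and 958 had none. Where a symbol had several identifiers (4 symbols), that of the highest mean was used, giving 24011 genes. The labels' description of 72 h arrays names 24 h, against their title, source and time labels, which were followed. No pair of arrays was identical. The labels do not say that replicate numbers pair the samples, and the main fit used no pairing. Same-numbered arrays deviated together with r from -0.23 to 0.15, over 0.1 in 2 of 24 pairs. Such low r does not exclude that equal numbers share a day or batch.

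The genes were fitted with limma 3.58.1 in R 4.3.3, with 1 mean per group over all 24 arrays and 20 residual degrees of freedom. P-values were adjusted over all genes by Benjamini-Hochberg, with a threshold of 0.05, and intervals are 95%. Differences are MCAO minus sham unless another order is given. The fit was tested on simulated data. The members and lists were chosen with earlier results of these data known. The text names all 9 members, up to 4 genes with the smallest p among those that passed in each pathway list, and the 5 genes at each end of the correlations with Itgb6. Markers that passed, the neighbours and further genes that spell out a count were named after their values were seen. Alternatives were a trended and robust prior, median centring, quantile normalization, leaving out dim genes, array weights, a replicate block, the receptor covariate, fitting only the groups compared, and leaving out arrays. A change of sign was counted as a reversal only where either fit made a call.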

Additional observations from a re-analysis of the deposited data

Results flagged for a closer look

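Single arrays apart from their group were searched among the 9 members and 17 named pathway genes with Dixon's test at the 95% level. Of 104 groups of 6 arrays 9 had such an array, and chance gives about 1 in 20. Among the members, Itgb6 in MCAO 72 h replicate 1 was the highest of its group at 5.83, with the next at 5.10, and still lay below every sham array. Itgav in sham 24 h replicate 1 was the highest at 7.80, with the next at 7.54. Tgfb1 in MCAO 24 h replicate 5 was the lowest at 6.57, with the next at 7.33.

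Among the other genes, Itga3 in sham 24 h replicate 5 was the lowest at 4.34 (next 4.78), and Itga1 in MCAO 24 h replicate 6 was the lowest at 7.67 (next 8.24). Adamts1 in MCAO 72 h replicate 4 was the lowest at 6.61 (next 7.07), and Ccn2 in sham 24 h replicate 4 was the highest at 8.14 (next 7.18). Col3a1 was the highest at 8.55 in sham 72 h replicate 2 (next 6.99) and at 6.14 in MCAO 72 h replicate 6 (next 5.60).

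For Smad6 the effect of MCAO at 72 h minus that at 24 h was 0.61 (SE 0.16, limma adjusted p = 0.0495), just past the threshold. The MCAO minus sham difference was -0.48 at 24 h and 0.13 at 72 h. Smad6 was named through its 24 h call, and the same 24 h values enter the difference between times. Its p-value is therefore not independent of that choice, and a change of the effect with time is not established. The call was lost in 21 of 24 fits without 1 array, the exceptions being replicates 1, 3 and 6 of MCAO 24 h, and in 5 of 8 other alternatives: the trended and robust prior (limma adjusted p = 0.0605), dim genes left out (0.0553), the replicate block (0.0541), without MCAO 24 h replicates 5 and 6 (0.0555) and the receptor covariate (0.26, limma adjusted p = 0.666).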

How the results depend on the processing

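Itgb6 was lower after MCAO under every alternative run, by -2.29 to -2.08 at 24 h and -2.09 to -1.86 at 72 h without any 1 array. The count of the 8 other members that passed at 24 h, 2, became 0 with the trended and robust prior, array weights, the receptor covariate or only the groups compared, 1 with dim genes left out or without MCAO 24 h replicates 5 and 6, and 0 to 3 without 1 array. At 72 h the count of 1 became 0 with the trended and robust prior, 2 with array weights or without those replicates, and 0 to 1 without 1 array. Of the pathway genes 24 passed at 24 h, 2 with the receptor covariate and 22 to 26 without 1 array. At 72 h 7 passed, 16 with array weights and 5 to 9 without 1 array. With the receptor covariate 3 differences called at 24 h changed sign: Itgb8 to -0.038, Bambi to 0.015 and Fermt2 to -0.014. With the replicate block 2 and 1 members and 23 and 8 pathway genes passed at 24 h and 72 h, and Itgb6 was at -2.21 and -1.95. The labels do not say that these numbers pair the samples. Over all genes 5237 passed at 24 h, against 3438 with dim genes left out, 3259 with array weights, 321 with the receptor covariate and 2194 with only the groups compared. At 72 h 565 passed, against 1905 with array weights, 1410 with only the groups compared and 1103 without MCAO 24 h replicates 5 and 6. For the difference between times 430 passed, against 218 with dim genes left out, 5 with the receptor covariate and 1079 without those replicates. For sham hearts at 72 h against 24 h 5 passed, 27 with array weights and 1 with the replicate block or only the groups compared. For MCAO hearts at 72 h against 24 h 2496 passed, 1408 with array weights, 20 with the receptor covariate and 848 with only the groups compared. Apart from fewer genes or arrays entering a fit, the cause was not tested. Itgb8 lay near the level of the receptor genes, so its signal limits what can be measured.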
